A study of Mus musculus with 8 samples.

Results

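Glycolysis and the transcriptional response to low oxygen were followed through 45 genes in ASZ001 cells, a line of mouse basal cell carcinoma. The genes were picked by symbol from a list and all 45 were found among the 24907 symbols of the deposited table. The list was chosen with earlier results of these data known. Counts set beside the shares over all genes are thus descriptions and no test of the list. They comprised 17 glycolytic enzymes, 9 transporters and regulators of glycolysis, 16 hypoxia targets outside glycolysis and 3 subunits of the hypoxia-inducible factors (HIF). Of these, 41 had enough counts to be tested. Eno2, Ldhb, Adm and Car9 did not, with 28, 31, 8 and 31.5 counts summed over all 8 libraries.

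Messenger RNA was sequenced from 4 groups of 2 libraries each, all from ASZ001 cells. The cells carried an shRNA, either non-silencing (NS cells, labelled as the control genotype) or directed at Tgfbr1, a TGF-beta receptor (knockdown cells). Each kind of cell was given DMSO or Dox and 4OHT (names in common use for doxycycline and 4-hydroxytamoxifen), and the libraries with these drugs are titled RasV12, an activated form of Ras. The 4 groups were thus NS with DMSO, knockdown with DMSO, NS with RasV12 and knockdown with RasV12. Neither the origin of the RasV12 construct and its promoter, nor doses, times, or whether the shRNA cells were clones or pools, is given in the sources used here. Dox and 4OHT were never given without RasV12, so drugs and Ras cannot be told apart, and "Ras response" stands for both. NS and knockdown cells carry different shRNAs. Loss of Tgfbr1, other effects of the shRNA and other differences between these cells cannot be told apart, and "knockdown" stands for all of them. The labels do not say that the 2 libraries of a group were separate cultures. The p-values then measure the spread between libraries alone, which may be technical.

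Library totals ran from 12724604.5 to 16233379 counts, and 12538 genes were tested. Levels are given in CPM, counts scaled to library totals. Tgfbr1 stood at 77.1 and 80.4 CPM in NS cells with DMSO and 104 and 91.6 with RasV12, against 10.2 and 8.08 and then 8.86 and 9.42 in knockdown cells, in the direction of the labels. Hras was at 176 and 179 CPM with DMSO and 162 and 158 CPM with RasV12 in NS cells, and at 57.9 and 58.6 CPM with DMSO and 53.3 and 52.3 CPM with RasV12 in knockdown cells, lower in both knockdown groups. Esr1, the estrogen receptor that binds 4OHT, ranged from 14.0 to 22.7 CPM with DMSO and from 3451 to 3987 CPM with RasV12. All 9 basal epithelial markers looked for were expressed; their summed level averaged 31198 CPM in NS cells with DMSO, 19357 in knockdown cells with DMSO, 15839 in NS cells with RasV12 and 15075 in knockdown cells with RasV12. The summed markers of other cell types ranged from 1.14 to 4.39 CPM for 7 fibroblast genes, from 4.51 to 15.5 for 4 immune genes, from 22.5 to 37.1 for 3 endothelial genes and from 3.37 to 6.22 for 4 pigment cell genes. Col3a1, Lum, Thy1, Cd3e, Dct and Tyr were at 0 in every library, and the immune sum was almost entirely Cd68, at 7.53 and 8.74 CPM in NS cells with DMSO and 15.5 and 14.8 in knockdown cells with RasV12. The endothelial sum was almost entirely Pecam1, from 22.4 to 37.0 CPM, and the pigment cell sum almost entirely Pmel. The lower basal sums came from Krt5, Krt14, Krt15, Krt17 and Itgb4, lower in the other 3 groups than in NS cells with DMSO. The other 4 markers, Trp63, Itga6, Cdh1 and Epcam, were higher in both knockdown groups than in NS cells with DMSO, Epcam for example at 319 and 309 CPM with DMSO and 342 and 340 CPM with RasV12 against 184 and 170 CPM. The part of these shifts in the results on metabolism was not tested, and in bulk RNA fewer cells of a type and less RNA per cell cannot be told apart. The ribosomal RNA entry Rn45s took from 0.388% to 2.76% of counts and was higher in most RasV12 libraries; without ribosomal RNA all 205 values of the members, 41 genes in 5 comparisons, kept their direction and their side of the threshold. Between the 2 libraries of a group, the chi-square of the counts per degree of freedom was 13.0 in NS cells with RasV12, 8.11 in knockdown cells with DMSO, 2.33 in NS cells with DMSO and 2.65 in knockdown cells with RasV12. Without Rn45s it ranged from 1.69 to 3.12, and over the 41 tested genes from 1.98 to 3.84, so that libraries of each group differed by more than counting error.

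Glycolysis converts glucose to pyruvate in the cytoplasm, and lactate dehydrogenase then reduces pyruvate to lactate. Cells that have little oxygen, and many carcinoma cells that have enough of it, run this route at a high rate and export the lactate. HIF is a pair of an oxygen-sensitive alpha subunit, Hif1a or Epas1, and the stable partner Arnt. With oxygen present, prolyl hydroxylases of the Egln family mark the alpha subunit for destruction through Vhl. Without it, the pair binds a short DNA core in many promoters, among them those of most glycolytic enzymes, Slc2a1, Vegfa, Bnip3 and the Egln genes themselves. HIF activity is set mainly through protein, which was not measured here.

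**Figure D1:**
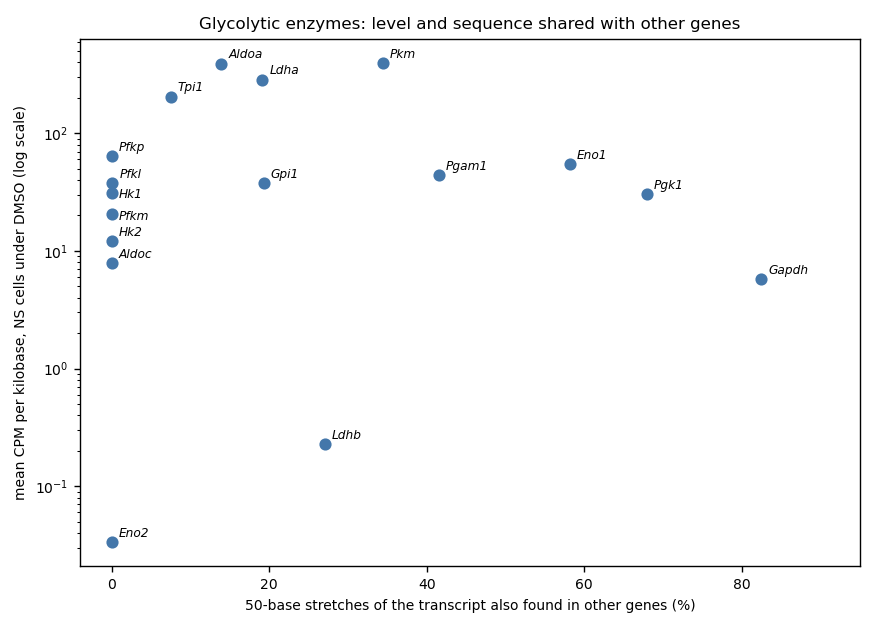
Level of each of the 17 glycolytic enzymes in NS cells with DMSO (mean CPM per kilobase of the deposited gene length, log scale, y axis) against the share of its transcript's 50-base stretches that also occur in transcripts of other genes (percent, x axis). Gapdh sits at the far right, with 82.5% of stretches shared, at 5.78 CPM per kilobase; Pkm, Aldoa, Ldha and Tpi1 are at the top.

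Per length, the glycolytic enzymes of NS cells with DMSO spanned a wide range. Pkm, which makes pyruvate, and Aldoa, which splits fructose bisphosphate, were the highest with 395 and 391 CPM per kilobase, and neither the order of these 2 nor their gap was examined by a test. Ldha followed with 286 and Tpi1 with 205 CPM per kilobase. A middle tier from Pfkp, at 63.6, down to Hk2, at 12.1 CPM per kilobase, held the hexokinases, the 3 phosphofructokinases, Gpi1, Pgk1, Pgam1 and Eno1. Aldoc was at 7.83 CPM per kilobase and the neuronal enolase Eno2 at 0.034. Ldhb, the other main lactate dehydrogenase subunit, was at 0.227 CPM per kilobase, so that almost all lactate dehydrogenase RNA was Ldha.

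Gapdh, usually among the most abundant RNAs of a cell, was at only 8.02 and 8.31 CPM in NS cells with DMSO. In the transcript annotation GENCODE M21, 82.5% of the 50-base stretches of the Gapdh transcript occurred in at least 1 of 218 other genes, 215 of them pseudogenes. Of the 10 genes above 20%, the others were Pgk1 with 68.0%, Eno1 with 58.1%, Mif with 51.1%, Pgam1 with 41.5%, Pkm with 34.4%, Ldhb with 27.0%, Pfkfb2 with 25.1%, Bnip3l with 25.1% and Bnip3 with 21.9%. Gpi1 with 19.3%, Ldha with 19.1% and Aldoa with 13.9% came next, and 25 of the 45 genes shared none. How reads that match several genes were counted is not given in the sources used here, so the levels of these 10 genes are uncertain, and to a lesser extent those of Gpi1, Ldha and Aldoa. Eno1b, an intronless copy that holds 56.3% of the Eno1 stretches, was at 315 and 321 CPM in NS cells with DMSO, above Eno1 itself at 96.2 and 95.3 CPM.

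Summed over the 17 glycolytic enzymes, the level was 3354 and 3341 CPM in NS cells with DMSO and 3338 and 3239 CPM in knockdown cells with DMSO. It was 3958 and 4204 CPM in NS cells with RasV12 and 5341 and 5412 CPM in knockdown cells with RasV12. The 2 DMSO groups lay next to each other with no clear gap, while the knockdown cells with RasV12 stood above every other library. Of the 41 tested genes, 28 had their highest group mean in knockdown cells with RasV12, 13 of the 15 tested glycolytic enzymes among them. The share of all genes with their highest mean there was not counted, so no excess is read from this.

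**Figure D2:**
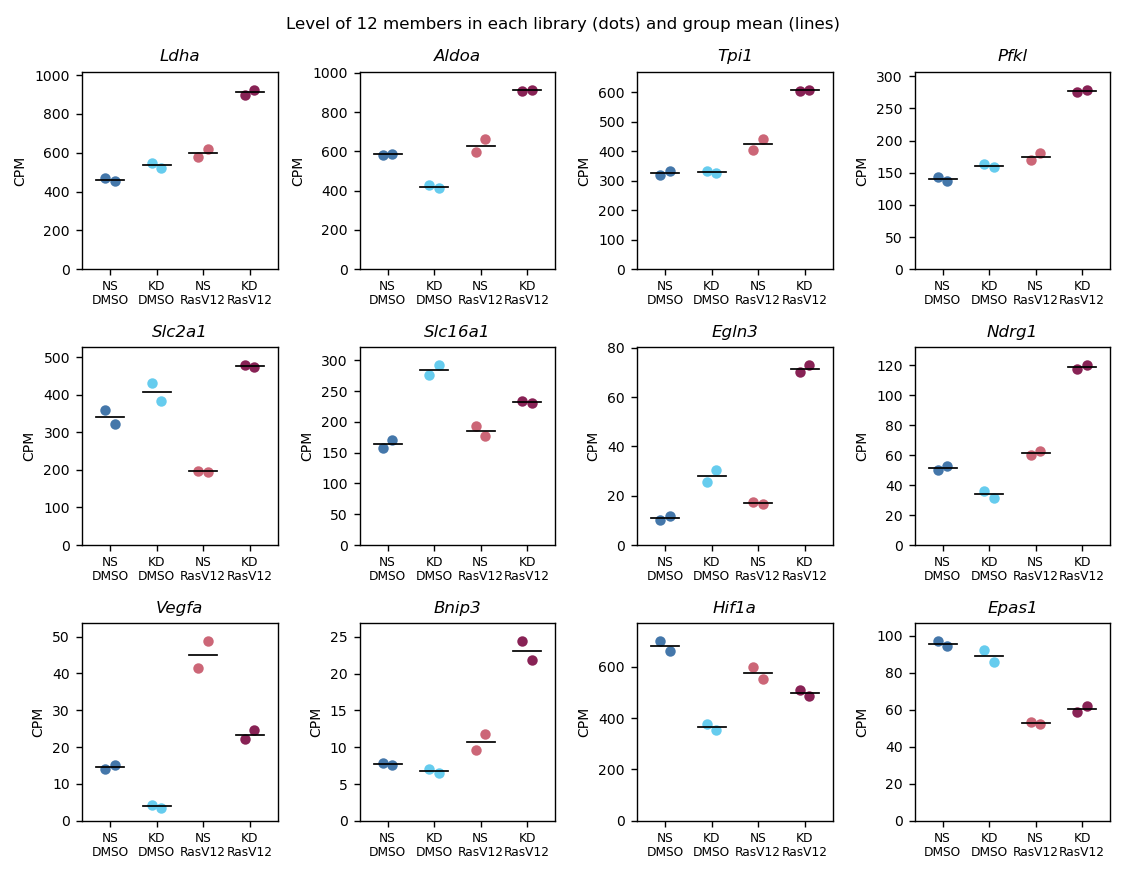
Level (CPM, y axis from 0) of 12 of the genes in each library, with dots for libraries and a line for the mean of 2, in NS and knockdown (KD) cells with DMSO or RasV12. Ldha, Aldoa, Tpi1, Pfkl, Egln3, Ndrg1 and Bnip3 peak in knockdown cells with RasV12, Slc2a1 is lowest in NS cells with RasV12, Vegfa peaks there, and Hif1a and Epas1 are highest in NS cells with DMSO.

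The first comparison asked how RasV12 changed these genes in NS cells. Glycolytic enzymes rose and none fell: 10 of 15 passed the test, all higher, with a median log2 change of 0.32 against 0.00 over all genes tested. Across all genes, 42.1% were called in this comparison, 20.8% higher and 21.3% lower. Counting every role, 20 of the 41 genes were higher and 7 lower. In knockdown cells the response was wider: all 15 tested glycolytic enzymes were higher, with a median of 0.61, and 33 of the 41 genes were higher and 2 lower. In neither kind of cell was a glycolytic enzyme lower at an unadjusted p of 0.05 or by DESeq2. In knockdown cells 36.1% of all genes were called, 19.5% higher and 16.6% lower, and the median over all genes was again 0.00. Changes are log2 changes, each with the standard error (SE) of the fit, and calls are at an adjusted p of 0.05 (Benjamini-Hochberg over all genes tested).

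**Figure D3:**
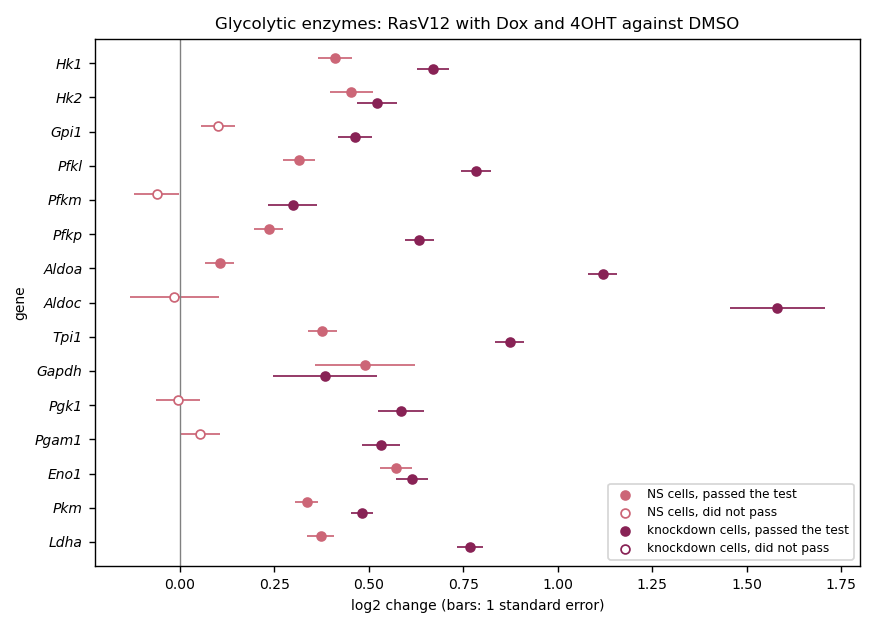
Log2 change of the 15 tested glycolytic enzymes with RasV12 against DMSO (x axis, bars 1 SE) in NS cells (light) and knockdown cells (dark), with filled dots for those that passed the test. All 15 dark dots are filled and lie above 0, and for Aldoa, Aldoc, Pgk1 and Pgam1 the light dot lies close to 0.

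The hexokinases, which trap glucose in the cell as a phosphate, rose in both kinds of cell. Hk1 was measured at 130.4 and 128 CPM with DMSO and 167 and 176 CPM with RasV12 in NS cells, and at 157 and 142 CPM with DMSO and 238 and 237 CPM with RasV12 in knockdown cells. It rose by 0.41 ± 0.045 (edgeR adjusted p = 1.9e-08) in NS cells and by 0.67 ± 0.043 (edgeR adjusted p = 1.5e-12) in knockdown cells, and neither pair of groups overlapped. Hk2, the isoform that many carcinomas induce, was at 65.6 and 67.7 CPM with DMSO and 90.4 and 91.8 CPM with RasV12 in NS cells, and at 81.3 and 92.1 CPM with DMSO and 120.0 and 129.9 CPM with RasV12 in knockdown cells. It rose by 0.45 ± 0.057 (edgeR adjusted p = 4.4e-07) in NS cells and by 0.52 ± 0.054 (edgeR adjusted p = 2.1e-08) in knockdown cells. Gpi1, the isomerase of the next step, had a change of 0.10 ± 0.045 that did not pass the test (edgeR adjusted p = 0.070) in NS cells and rose by 0.46 ± 0.044 (edgeR adjusted p = 3.1e-09) in knockdown cells.

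Phosphofructokinase commits the sugar to glycolysis, and its 3 isoforms responded unequally. Pfkl, the liver-type isoform, was at 144 and 137 CPM with DMSO and 169.5 and 181 CPM with RasV12 in NS cells, and at 163 and 159 CPM with DMSO and 275 and 279 CPM with RasV12 in knockdown cells. It rose by 0.32 ± 0.042 (edgeR adjusted p = 6.5e-07) in NS cells and by 0.78 ± 0.040 (edgeR adjusted p = 1.7e-14) in knockdown cells. Pfkp, the platelet-type isoform and the highest of the 3 per length in NS cells with DMSO, was at 261 and 249 CPM with DMSO and 294 and 307 CPM with RasV12 in NS cells, and at 201 and 204 CPM with DMSO and 307 and 322 CPM with RasV12 in knockdown cells. It rose by 0.24 ± 0.038 (edgeR adjusted p = 1.1e-05) in NS cells and by 0.63 ± 0.038 (edgeR adjusted p = 4.7e-13) in knockdown cells. Pfkm, the muscle-type isoform, was at 58.6 and 55.5 CPM with DMSO and 56.4 and 53.1 CPM with RasV12 in NS cells, and at 41.2 and 38.2 CPM with DMSO and 49.4 and 48.1 CPM with RasV12 in knockdown cells. It had a change of -0.06 ± 0.060 that did not pass the test (edgeR adjusted p = 0.44) in NS cells and rose by 0.30 ± 0.065 (edgeR adjusted p = 0.00064) in knockdown cells.

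Among the enzymes, the aldolases showed the widest gap between the 2 kinds of cell. Aldoa was measured at 583 and 589 CPM in NS cells with DMSO and 597 and 664 with RasV12, while the knockdown cells held 428 and 412 CPM with DMSO and 908 and 915 CPM with RasV12. In knockdown cells it rose by 1.12 ± 0.039 (edgeR adjusted p = 1.6e-15). In NS cells it rose by 0.11 ± 0.039 (edgeR adjusted p = 0.033), a call that was lost without either NS library with DMSO (adjusted p of 0.15 and 0.097) or without the second NS library with RasV12 (change 0.03, adjusted p of 0.62), and that grew to 0.19 without the first; DESeq2 did not call it either (adjusted p of 0.13). Aldoc, the isoform best known from brain, was at 21.6 and 20.1 CPM in NS cells with DMSO and 19.6 and 21.8 with RasV12, overlapping, and rose in knockdown cells from 14.6 and 9.91 to 34.8 and 38.3 CPM. Its change was -0.01 ± 0.12 (edgeR adjusted p = 0.94) in NS cells, which did not pass, and 1.58 ± 0.13 (edgeR adjusted p = 1.2e-08) in knockdown cells, the largest of any glycolytic enzyme. Tpi1, which interconverts the products of aldolase, was at 321 and 332 CPM with DMSO and 405 and 442 CPM with RasV12 in NS cells, and at 335 and 328 CPM with DMSO and 604 and 609 CPM with RasV12 in knockdown cells. It rose by 0.38 ± 0.037 (edgeR adjusted p = 4.4e-09) in NS cells and by 0.87 ± 0.037 (edgeR adjusted p = 4.8e-16) in knockdown cells, and the 2 kinds of cell overlapped with DMSO.

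Among the enzymes of the later steps, Pgk1 and Pgam1 passed the test in knockdown cells alone. Pgk1, which makes the first ATP, was at 54.8 and 56.1 CPM with DMSO and 52.8 and 57.6 CPM with RasV12 in NS cells, and at 43.8 and 43.4 CPM with DMSO and 64.7 and 66.2 CPM with RasV12 in knockdown cells. It rose by 0.59 ± 0.060 (edgeR adjusted p = 1.1e-08) in knockdown cells, against -0.0046 ± 0.059 (edgeR adjusted p = 0.96) in NS cells. Pgam1, a mutase, was at 79.0 and 82.2 CPM with DMSO and 79.6 and 87.3 CPM with RasV12 in NS cells, and at 86.1 and 84.7 CPM with DMSO and 119 and 128 CPM with RasV12 in knockdown cells. It rose by 0.53 ± 0.051 (edgeR adjusted p = 3.0e-09), against 0.05 ± 0.053 (edgeR adjusted p = 0.45) in NS cells. The levels of both are among those made uncertain by shared sequence.

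Eno1 and Gapdh passed the test in both kinds of cell. Eno1, an enolase, was measured at 96.2 and 95.3 CPM with DMSO and 139 and 146 CPM with RasV12 in NS cells, and at 99.6 and 98.9 CPM with DMSO and 154 and 149.7 CPM with RasV12 in knockdown cells, and rose by 0.57 ± 0.043 (edgeR adjusted p = 2.0e-11) in NS cells and by 0.61 ± 0.043 (edgeR adjusted p = 9.1e-12) in knockdown cells. Its copy Eno1b moved from 315 and 321 to 456 and 483 CPM and from 337 and 332 to 500.3 and 494 CPM, and summing the 2 entries changed no call of Eno1 for the Ras responses. Gapdh was at 8.02 and 8.31 CPM with DMSO and 11.5 and 11.4 CPM with RasV12 in NS cells, and at 7.49 and 8.68 CPM with DMSO and 11.7 and 9.38 CPM with RasV12 in knockdown cells. It rose by 0.49 ± 0.13 (edgeR adjusted p = 0.0039) in NS cells, where DESeq2 gave an adjusted p of 0.062. In knockdown cells it rose by 0.38 ± 0.14 (edgeR adjusted p = 0.028), and this call was lost without the first knockdown library with DMSO (adjusted p of 0.22) or the first with RasV12 (change 0.21, adjusted p of 0.40) and by DESeq2 (adjusted p of 0.19).

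Pkm and Ldha, the last 2 steps, rose in both. Pkm rose by 0.34 ± 0.030 (edgeR adjusted p = 5.1e-10) in NS cells and by 0.48 ± 0.030 (edgeR adjusted p = 7.7e-13) in knockdown cells. Ldha was at 468 and 455 CPM with DMSO and 577 and 619 CPM with RasV12 in NS cells, and at 547 and 522 CPM with DMSO and 895 and 925 CPM with RasV12 in knockdown cells, with no overlap among the 4 groups. It rose by 0.37 ± 0.036 (edgeR adjusted p = 3.0e-09) in NS cells and by 0.77 ± 0.036 (edgeR adjusted p = 3.5e-15) in knockdown cells.

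Of the 9 transporters and regulators, 2 rose and 3 fell with RasV12 in NS cells, and 3 rose and 1 fell in knockdown cells, with medians of -0.05 and -0.03. The shares called, 55.6% and 44.4%, stand beside 42.1% and 36.1% over all genes, and no direction of this role is read from them. Slc2a1, the main glucose importer of epithelial cells, was at 361 and 324 CPM in NS cells with DMSO and 198 and 194 with RasV12. In knockdown cells it was at 431 and 384 CPM and then 478 and 474 CPM. It fell by 0.80 ± 0.062 (edgeR adjusted p = 3.2e-06) in NS cells, while 10 of the 15 enzymes rose. In knockdown cells it rose by 0.22 ± 0.059 (edgeR adjusted p = 0.014), a smaller change that lost its call without the first NS library with RasV12 (adjusted p of 0.0501) or the first knockdown library with RasV12 (0.0518) and was 0.14 without the second knockdown library with DMSO.

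Slc16a1, a carrier of lactate and other monocarboxylates, moved the opposite way in the 2 kinds of cell. It was at 158 and 170.3 CPM with DMSO and 194 and 177 CPM with RasV12 in NS cells, and at 276 and 292 CPM with DMSO and 234 and 231 CPM with RasV12 in knockdown cells. It rose by 0.17 ± 0.046 (edgeR adjusted p = 0.0037) in NS cells, a call lost without the first library of either NS group (adjusted p of 0.091 without the one with DMSO; change 0.11 and adjusted p of 0.092 without the one with RasV12). In knockdown cells it fell by 0.29 ± 0.044 (edgeR adjusted p = 1.2e-05). Slc16a3, the carrier usually linked with lactate export in hypoxia, stayed between 0.540 and 1.18 CPM in all libraries and passed no test, and Slc2a3 lay between 0.391 and 1.16 CPM.

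The Pfkfb enzymes make and remove a fructose bisphosphate that activates phosphofructokinase and differs from the one that aldolase splits. Pfkfb2 was at 41.1 and 40.7 CPM with DMSO and 40.3 and 38.8 CPM with RasV12 in NS cells, and at 56.8 and 55.8 CPM with DMSO and 68.4 and 67.9 CPM with RasV12 in knockdown cells, where it rose by 0.28 ± 0.055 (edgeR adjusted p = 0.00022). Pfkfb3 fell by 0.37 ± 0.12 (edgeR adjusted p = 0.014) in NS cells, which was lost without the second NS library with DMSO (adjusted p of 0.090) or the first with RasV12 (change -0.22, adjusted p of 0.24). Pfkfb4 rose by 0.57 ± 0.20 (edgeR adjusted p = 0.025) there, which was lost without either NS library with DMSO (adjusted p of 0.12 and 0.065) or the second with RasV12 (change 0.28, adjusted p of 0.42). The kinases Pdk1 and Pdk3 switch off pyruvate dehydrogenase and so keep pyruvate out of the mitochondrion. Pdk1 rose by 0.25 ± 0.046 (edgeR adjusted p = 9.8e-05) in knockdown cells and fell by 0.12 ± 0.046 (edgeR adjusted p = 0.037) in NS cells, the latter lost without any of the 4 NS libraries (adjusted p from 0.081 without the second with RasV12 to 0.17 without the first with DMSO). Pdk3 did not pass in either. By DESeq2 these 3 calls in NS cells were lost as well, with an adjusted p of 0.12 for Pfkfb3, 0.16 for Pfkfb4 and 0.22 for Pdk1.

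**Figure D4:**
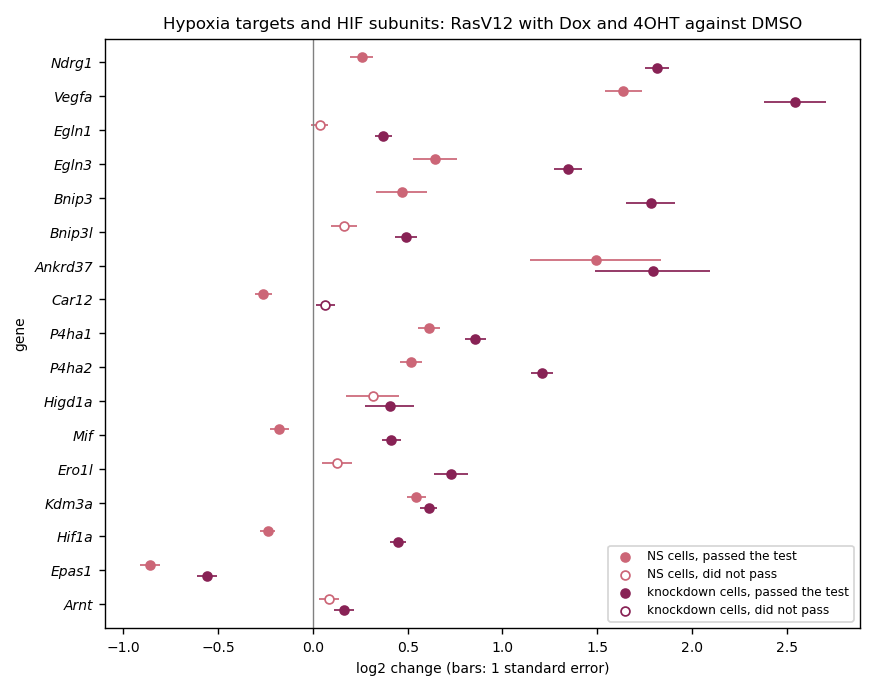
Log2 change of the 14 tested hypoxia targets outside glycolysis and the 3 HIF subunits with RasV12 against DMSO (x axis, bars 1 SE) in NS cells (light) and knockdown cells (dark), with filled dots for those that passed the test. Ndrg1 and Bnip3 show the widest distance between the 2 dots, Vegfa the largest change, and Epas1 is the only gene below 0 in both.

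Hypoxia targets outside glycolysis rose as well. In NS cells 8 of the 14 tested were higher and 2 lower with RasV12, with a median change of 0.39, and in knockdown cells 13 were higher, with a median of 0.79, and none was lower, nor was any at an unadjusted p of 0.05 or by DESeq2. Vegfa, the growth factor of blood vessels, was at 14.0 and 15.0 CPM with DMSO and 41.5 and 48.7 CPM with RasV12 in NS cells, and at 4.39 and 3.58 CPM with DMSO and 22.2 and 24.6 CPM with RasV12 in knockdown cells. It rose by 1.64 ± 0.097 (edgeR adjusted p = 1.0e-13) in NS cells and by 2.54 ± 0.16 (edgeR adjusted p = 1.1e-13) in knockdown cells, the largest change of the 41 genes in either kind of cell. Its highest libraries were nevertheless those of NS cells with RasV12. Ankrd37, an ankyrin repeat protein induced by HIF in many cell types, was low, from 0.715 to 1.22 CPM with DMSO and from 2.05 to 3.99 CPM with RasV12, and rose by 1.49 ± 0.35 (edgeR adjusted p = 0.00053) in NS cells and by 1.79 ± 0.30 (edgeR adjusted p = 1.0e-05) in knockdown cells.

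Ndrg1, a cytoplasmic protein induced by hypoxia and by differentiation, was at 50.004 and 52.6 CPM in NS cells with DMSO and 59.8 and 62.5 with RasV12. Knockdown cells moved from the lowest group, 36.3 and 31.3 CPM with DMSO, to the highest, 118 and 120.0 CPM with RasV12. It rose by 0.26 ± 0.061 (edgeR adjusted p = 0.0013) in NS cells and by 1.82 ± 0.063 (edgeR adjusted p = 1.3e-18) in knockdown cells. Egln3, a HIF prolyl hydroxylase, was at 9.98 and 11.8 CPM with DMSO and 17.3 and 16.5 CPM with RasV12 in NS cells, and at 25.7 and 30.3 CPM with DMSO and 70.4 and 72.9 CPM with RasV12 in knockdown cells, with no overlap among the 4 groups. It rose by 0.64 ± 0.11 (edgeR adjusted p = 3.9e-05) in NS cells and by 1.35 ± 0.074 (edgeR adjusted p = 3.8e-14) in knockdown cells. Egln1, the main HIF hydroxylase, rose by 0.37 ± 0.045 (edgeR adjusted p = 2.4e-07) in knockdown cells, against 0.04 ± 0.044 (edgeR adjusted p = 0.55) in NS cells.

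Bnip3 and Bnip3l encode receptors on mitochondria that mark them for autophagy. Bnip3 was at 7.90 and 7.64 CPM with DMSO and 9.65 and 11.8 CPM with RasV12 in NS cells, and at 6.99 and 6.50 CPM with DMSO and 24.4 and 21.9 CPM with RasV12 in knockdown cells. It rose by 1.78 ± 0.13 (edgeR adjusted p = 4.5e-12) in knockdown cells. In NS cells it rose by 0.47 ± 0.14 (edgeR adjusted p = 0.0062), which was lost without the second library with RasV12 (change 0.31, adjusted p of 0.15) and by DESeq2 (adjusted p of 0.060). Bnip3l was at 38.0 and 37.8 CPM with DMSO and 45.1 and 40.0 CPM with RasV12 in NS cells, and at 54.1 and 51.1 CPM with DMSO and 73.5 and 74.2 CPM with RasV12 in knockdown cells. It rose by 0.49 ± 0.059 (edgeR adjusted p = 2.0e-07) in knockdown cells. In NS cells it had a change of 0.16 ± 0.068 that did not pass the test (edgeR adjusted p = 0.052); the adjusted p was 0.014 without the second NS library with RasV12, with a change of 0.25, 0.046 and 0.047 without either knockdown library with DMSO, and 0.046 with a block for the replicate number.

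P4ha1 and P4ha2, the catalytic subunits of collagen prolyl hydroxylase, rose in both kinds of cell. P4ha1 was at 44.2 and 44.1 CPM with DMSO and 66.3 and 68.6 CPM with RasV12 in NS cells, and at 53.9 and 51.6 CPM with DMSO and 91.8 and 99.6 CPM with RasV12 in knockdown cells, and rose by 0.61 ± 0.060 (edgeR adjusted p = 2.6e-09) in NS cells and by 0.86 ± 0.056 (edgeR adjusted p = 1.8e-12) in knockdown cells. P4ha2 was at 67.3 and 69.4 CPM with DMSO and 95.3 and 100.1 CPM with RasV12 in NS cells, and at 64.5 and 54.1 CPM with DMSO and 138 and 135 CPM with RasV12 in knockdown cells, and rose by 0.52 ± 0.059 (edgeR adjusted p = 1.8e-07) in NS cells and by 1.21 ± 0.059 (edgeR adjusted p = 1.4e-13) in knockdown cells. Kdm3a, a histone demethylase, was at 56.6 and 57.6 CPM with DMSO and 83.0 and 83.6 CPM with RasV12 in NS cells, and at 83.4 and 86.1 CPM with DMSO and 129.9 and 129 CPM with RasV12 in knockdown cells. It rose by 0.55 ± 0.050 (edgeR adjusted p = 8.8e-10) in NS cells and by 0.61 ± 0.045 (edgeR adjusted p = 2.6e-11) in knockdown cells. Ero1l, an oxidase of the endoplasmic reticulum, was at 31.8 and 33.4 CPM with DMSO and 34.4 and 36.7 CPM with RasV12 in NS cells, and at 21.9 and 18.8 CPM with DMSO and 31.3 and 36.3 CPM with RasV12 in knockdown cells. It rose by 0.73 ± 0.090 (edgeR adjusted p = 2.5e-07) in knockdown cells, against 0.13 ± 0.080 (edgeR adjusted p = 0.22) in NS cells.

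The 2 targets that fell in NS cells were Car12 and Mif. Car12, a carbonic anhydrase of the cell surface, was at 139.7 and 146 CPM with DMSO and 119 and 119 CPM with RasV12 in NS cells, and at 83.4 and 90.1 CPM with DMSO and 94.7 and 86.6 CPM with RasV12 in knockdown cells, where the groups overlapped. It fell by 0.26 ± 0.047 (edgeR adjusted p = 5.7e-05) in NS cells and was the only tested hypoxia target that was not called in knockdown cells (0.07 ± 0.052 (edgeR adjusted p = 0.35)). Mif, a cytokine, fell by 0.18 ± 0.050 (edgeR adjusted p = 0.0052) in NS cells and rose by 0.41 ± 0.051 (edgeR adjusted p = 3.1e-07) in knockdown cells; the fall was lost without the second NS library with DMSO (adjusted p of 0.11) and by DESeq2 (0.066). Higd1a, a small mitochondrial protein, rose by 0.40 ± 0.13 (edgeR adjusted p = 0.016) in knockdown cells, a call lost without the first knockdown library with DMSO (adjusted p of 0.14) or the first with RasV12 (change 0.19, adjusted p of 0.40) and by DESeq2 (adjusted p of 0.15). Car9 and Adm, which are prominent hypoxia targets elsewhere, were too low to test, at no more than 0.703 and 0.249 CPM in any library.

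The RNA of both alpha subunits of HIF fell in NS cells. Hif1a was at 698 and 663 CPM with DMSO and 599.6 and 554 CPM with RasV12 in NS cells, and at 377 and 353 CPM with DMSO and 510.1 and 487 CPM with RasV12 in knockdown cells. It fell by 0.24 ± 0.042 (edgeR adjusted p = 0.00012) in NS cells and rose by 0.45 ± 0.043 (edgeR adjusted p = 1.0e-07) in knockdown cells, and its highest libraries were those of NS cells with DMSO. Epas1, the other alpha subunit, was at 96.9 and 94.4 CPM with DMSO and 53.4 and 52.0 CPM with RasV12 in NS cells, and at 92.0 and 85.6 CPM with DMSO and 58.5 and 62.0 CPM with RasV12 in knockdown cells. It fell by 0.86 ± 0.055 (edgeR adjusted p = 4.7e-13) in NS cells and by 0.56 ± 0.054 (edgeR adjusted p = 3.8e-09) in knockdown cells, and was the only gene of the 41 called lower in both. Arnt, the shared partner, was at 97.2 and 97.9 CPM with DMSO and 104 and 103 CPM with RasV12 in NS cells, and at 115 and 107 CPM with DMSO and 132 and 116 CPM with RasV12 in knockdown cells. It rose by 0.16 ± 0.052 (edgeR adjusted p = 0.015) in knockdown cells, which was lost without the second knockdown library with DMSO (adjusted p of 0.21) or the first with RasV12 (change 0.07, adjusted p of 0.42) or by DESeq2 (adjusted p of 0.097), and which was 0.25 without the second with RasV12.

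Over the 2 Ras responses, which share no library, 18 of the 41 genes were called higher in both and 11 were called higher in knockdown cells and not called in NS cells. Slc2a1, Pdk1, Mif and Hif1a were called lower in NS cells and higher in knockdown cells, and Slc16a1 the reverse. Pfkfb4 was called higher in NS cells alone, Pfkfb3 and Car12 were called lower there alone, and Slc2a3, Slc16a3 and Pdk3 were called in neither. These joint counts were not made over all genes tested, so no excess is read from them. A call in only 1 kind of cell does not show a difference, so the difference was tested itself, as the Ras response of knockdown cells minus that of NS cells.

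This difference passed the test in 29 of the 41 genes and was positive in 28 of them. A positive difference was not always a larger response. In NS and knockdown cells, Slc2a1 was at -0.80 and 0.22, Epas1 at -0.86 and -0.56 and Car12 at -0.26 and 0.07. These genes changed more in NS cells. Over all genes tested 38.2% were called in the difference, 20.2% higher and 18.0% lower, with a median of 0.02. Of the 15 glycolytic enzymes 12 were higher and none lower, with a median difference of 0.39, and of the 14 hypoxia targets 11 were higher and none lower, with a median of 0.46. None of either role was lower at an unadjusted p of 0.05 or by DESeq2. It was 1.60 ± 0.17 (edgeR adjusted p = 9.8e-07) for Aldoc, 1.56 ± 0.088 (edgeR adjusted p = 1.6e-13) for Ndrg1 and 1.32 ± 0.19 (edgeR adjusted p = 2.5e-06) for Bnip3, the 3 largest. Slc2a1 followed with 1.03 ± 0.086 (edgeR adjusted p = 8.0e-06) and Aldoa with 1.01 ± 0.055 (edgeR adjusted p = 5.4e-12). Among enzymes called in both kinds of cell, the difference was 0.04 ± 0.061 (edgeR adjusted p = 0.62) for Eno1, -0.11 ± 0.19 (edgeR adjusted p = 0.70) for Gapdh and 0.07 ± 0.079 (edgeR adjusted p = 0.53) for Hk2, and none of these passed. Nor did Kdm3a, at 0.06 ± 0.068 (edgeR adjusted p = 0.49), or Ankrd37, at 0.30 ± 0.46 (edgeR adjusted p = 0.65). Slc16a1 was the only gene with the difference called lower, at -0.46 ± 0.064 (edgeR adjusted p = 3.2e-06).

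The remaining differences lay between 0.15 for Pkm and 0.91 for Vegfa among the called genes. Among the HIF subunits, Hif1a had 0.69 ± 0.060 (edgeR adjusted p = 3.5e-08) and Epas1 0.30 ± 0.077 (edgeR adjusted p = 0.0029). The call of Pkm was lost without the second knockdown library with DMSO (adjusted p of 0.060) or the first NS library with RasV12 (0.057), and that of Bnip3l without the second NS library with RasV12 (0.057) and by DESeq2 (0.057). That of P4ha1 was lost without either NS library with DMSO (0.070 and 0.052), the second knockdown library with DMSO (0.090), the first NS library with RasV12 (0.072) or the second knockdown library with RasV12 (0.11), and by DESeq2 (0.12).

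The promoters of these genes were searched for the core of the hypoxia response element, the letters ACGTG or GCGTG on either strand. Promoters of 300 bases, 250 before and 50 after a start, were taken from RefSeq on build GRCm38.p6, and 41 of the 45 genes had at least 1. Slc2a3, Ndrg1, Bnip3l and Epas1 had none. These are not the 41 tested genes, since the untested Eno2, Ldhb, Adm and Car9 are among those with a promoter. The core was found in 37 of the 41 listed genes with a promoter, 90.24%. It was found in 68.43% of the 9711 tested genes with a promoter and in 46.73% of all 27025 genes of the promoter table. A gene counts if any of its starts holds a match, so genes with several starts have more chances, and a match is a description and not a binding site. The genes were listed as glycolysis genes and hypoxia targets, so a share above that of other genes was partly set by this choice. Whether the core bears on their changes was not tested. Glycolytic enzymes held it in 14 of 17, transporters and regulators in 8 of 8, hypoxia targets in 13 of 14 and HIF subunits in 2 of 2.

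The 250 bases before the start are shown for 6 genes, 5 with matches and 1 without, with every match to the core in capitals. Bnip3 and Ankrd37 are shown for their number of matches and their rise with RasV12, P4ha2 and Ldha as a hypoxia target and an enzyme that rose in both kinds of cell, Slc2a1 for its opposite Ras responses and Car12 as the tested hypoxia target that rose in neither. The 6 were picked with matches and changes known, so no link between matches and changes is read from them. Vegfa, with the largest rise, had 0 matches in the window of 1 start and 2 in that of the other. Bnip3 lies on the minus strand at chr7:138909507-138909756, Ankrd37 on the minus strand at chr8:45999851-46000100, P4ha2 on the plus strand at chr11:54100674-54100923, Ldha on the plus strand at chr7:46845554-46845803, Slc2a1 on the plus strand at chr4:119108495-119108744 and Car12 on the plus strand at chr9:66713436-66713685. Each is printed in the direction of its gene, 5′ to 3′, and ends at the base before the start.
Bnip3: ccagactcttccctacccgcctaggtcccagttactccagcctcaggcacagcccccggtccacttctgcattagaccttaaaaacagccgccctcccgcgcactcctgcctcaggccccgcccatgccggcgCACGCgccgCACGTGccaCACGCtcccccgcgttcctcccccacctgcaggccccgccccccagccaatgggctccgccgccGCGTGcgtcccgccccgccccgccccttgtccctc
Ankrd37: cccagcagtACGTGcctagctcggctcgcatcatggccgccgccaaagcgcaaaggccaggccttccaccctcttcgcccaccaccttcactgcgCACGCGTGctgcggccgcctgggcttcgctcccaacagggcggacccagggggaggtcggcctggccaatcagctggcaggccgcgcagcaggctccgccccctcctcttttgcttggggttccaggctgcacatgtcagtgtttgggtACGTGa
P4ha2: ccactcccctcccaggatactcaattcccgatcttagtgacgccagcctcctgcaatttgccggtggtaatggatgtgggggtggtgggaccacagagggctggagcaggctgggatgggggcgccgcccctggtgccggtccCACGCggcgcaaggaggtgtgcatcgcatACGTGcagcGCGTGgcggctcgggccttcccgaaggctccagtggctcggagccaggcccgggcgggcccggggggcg
Ldha: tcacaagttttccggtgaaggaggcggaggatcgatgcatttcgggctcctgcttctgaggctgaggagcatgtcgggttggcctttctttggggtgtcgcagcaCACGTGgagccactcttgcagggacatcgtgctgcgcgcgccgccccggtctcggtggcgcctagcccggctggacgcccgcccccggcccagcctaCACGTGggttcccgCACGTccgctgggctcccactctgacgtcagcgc
Slc2a1: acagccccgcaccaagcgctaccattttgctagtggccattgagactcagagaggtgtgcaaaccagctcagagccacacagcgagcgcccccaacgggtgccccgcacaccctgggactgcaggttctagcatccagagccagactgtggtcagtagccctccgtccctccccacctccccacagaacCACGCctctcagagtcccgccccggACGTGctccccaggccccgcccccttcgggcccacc
Car12: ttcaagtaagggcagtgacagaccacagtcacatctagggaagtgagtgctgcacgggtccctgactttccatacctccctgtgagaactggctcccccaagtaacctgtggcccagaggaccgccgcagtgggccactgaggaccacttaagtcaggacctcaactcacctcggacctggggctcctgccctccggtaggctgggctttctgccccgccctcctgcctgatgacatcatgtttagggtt

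In these stretches the core occurred 5 times before Bnip3, 4 times before Ankrd37, 3 times before P4ha2, 5 times before the upstream start of Ldha and 2 times before Slc2a1, where a palindrome CACGTG counts once on each strand. The genes without a match in any window were Gpi1, Tpi1, Eno2 and Car12. Of these, Tpi1 and Gpi1 rose with RasV12 in knockdown cells, and a link with the motif was not tested. No match says only that these letters are not in this window.

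**Figure D5:**
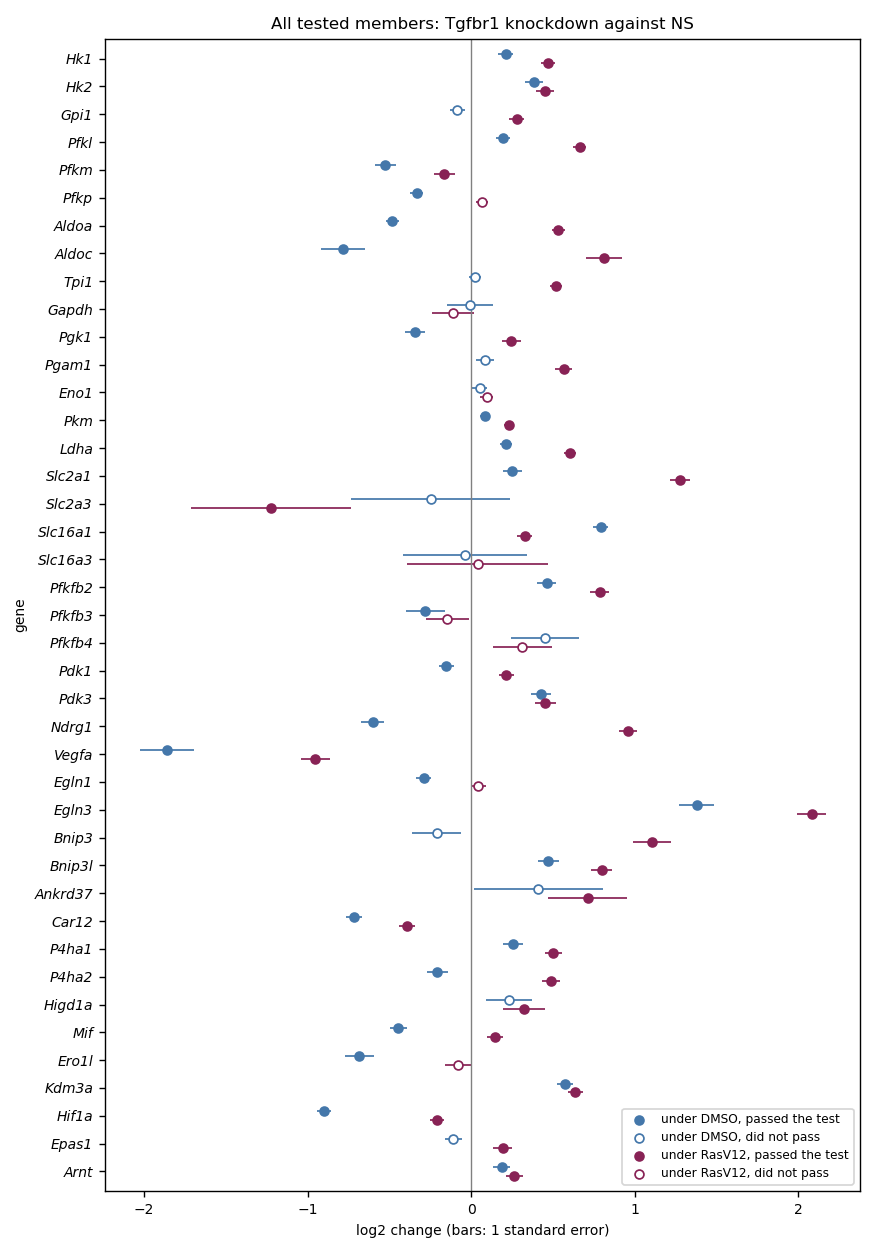
Log2 change of all 41 tested genes with knockdown of Tgfbr1 against NS (x axis, bars 1 SE) with DMSO (blue) and with RasV12 (dark red), with filled dots for those that passed the test. The blue dots lie on both sides of 0, most dark red dots lie above 0, and Vegfa and Egln3 mark the 2 ends.

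In knockdown against NS cells under DMSO, 14 of the 41 genes were higher and 15 lower, 34.1% and 36.6%. These shares are near the background, where over all genes 61.9% were called, 30.9% higher and 31.0% lower, and the medians were -0.01 for the 41 genes and 0.00 for all. The values of single genes follow. The 15 glycolytic enzymes split into 5 higher and 5 lower, with a median of 0.02. Hk2 rose by 0.38 ± 0.058 (edgeR adjusted p = 2.5e-06), Hk1 rose by 0.21 ± 0.045 (edgeR adjusted p = 0.00022) and Ldha rose by 0.21 ± 0.036 (edgeR adjusted p = 1.4e-05). Pfkl rose by 0.19 ± 0.042 (edgeR adjusted p = 0.00025), whereas the other phosphofructokinases fell, Pfkm by 0.52 ± 0.063 (edgeR adjusted p = 5.1e-08) and Pfkp by 0.33 ± 0.039 (edgeR adjusted p = 2.5e-08). Both aldolases fell, Aldoa with -0.48 ± 0.039 (edgeR adjusted p = 5.3e-10) and Aldoc with -0.78 ± 0.13 (edgeR adjusted p = 5.5e-05), the latter -0.52 without the second knockdown library with DMSO. Pgk1 fell by 0.35 ± 0.061 (edgeR adjusted p = 1.9e-05). Pkm rose by 0.08 ± 0.030 (edgeR adjusted p = 0.018), which was lost without either NS library with DMSO (adjusted p of 0.055 and 0.053) or the first knockdown library with DMSO (0.089), and by DESeq2 (0.076).

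Among the transporters and regulators 4 were higher and 2 lower with DMSO. The lactate carrier Slc16a1 rose by 0.79 ± 0.045 (edgeR adjusted p = 1.8e-13), the largest change of this role, and Slc2a1 rose by 0.25 ± 0.060 (edgeR adjusted p = 0.0044). Pfkfb2 rose by 0.46 ± 0.059 (edgeR adjusted p = 1.4e-07) and Pdk3 rose by 0.43 ± 0.061 (edgeR adjusted p = 8.8e-07). The falls of Pfkfb3, -0.28 ± 0.12 (edgeR adjusted p = 0.041), and Pdk1, -0.15 ± 0.046 (edgeR adjusted p = 0.0054), were less firm. The former was lost without either NS library with DMSO (adjusted p of 0.079 and 0.19) or the first knockdown library with DMSO (0.27), and the latter without the first NS library with DMSO (0.056), and DESeq2 called neither (adjusted p of 0.20 and 0.070). Pfkfb4, at 0.45 ± 0.21 (edgeR adjusted p = 0.058), did not pass, and reached 0.039 and 0.039 without either NS library with RasV12.

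Of the 14 hypoxia targets 4 were higher and 7 lower in knockdown cells with DMSO, with a median of -0.21. Vegfa fell by 1.86 ± 0.17 (edgeR adjusted p = 5.6e-11) and Car12 fell by 0.72 ± 0.049 (edgeR adjusted p = 7.6e-13). Ero1l fell by 0.68 ± 0.089 (edgeR adjusted p = 1.9e-07), Ndrg1 fell by 0.60 ± 0.068 (edgeR adjusted p = 1.5e-08), and Mif fell by 0.44 ± 0.051 (edgeR adjusted p = 2.1e-08). Egln1 fell by 0.29 ± 0.045 (edgeR adjusted p = 3.3e-06), while the related Egln3 rose by 1.38 ± 0.10 (edgeR adjusted p = 3.6e-12), the largest rise of the 41 genes with DMSO. Kdm3a, Bnip3l and P4ha1 also rose, with 0.57 ± 0.050 (edgeR adjusted p = 1.2e-10), 0.47 ± 0.065 (edgeR adjusted p = 5.2e-07) and 0.26 ± 0.062 (edgeR adjusted p = 0.00076). P4ha2 fell by 0.21 ± 0.063 (edgeR adjusted p = 0.0073); this was lost without the second NS library with DMSO (adjusted p of 0.060) or the second knockdown library with DMSO (change -0.08, adjusted p of 0.33), and was -0.32 without the first. Hif1a fell by 0.90 ± 0.042 (edgeR adjusted p = 7.2e-13), to the lowest level of the 4 groups, and Arnt rose by 0.19 ± 0.053 (edgeR adjusted p = 0.0036). Epas1 was at -0.11 ± 0.050 (edgeR adjusted p = 0.061), which did not pass with all libraries and reached 0.045 without the first knockdown library with DMSO.

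With RasV12 the same contrast of knockdown against NS cells was one-sided. Of the 41 genes 28 were higher and 5 lower, with a median of 0.32, where over all genes 60.2% were called, 30.5% higher and 29.7% lower, with a median of -0.01. Glycolytic enzymes were higher in 11 of 15 and lower in 1, with a median of 0.45. Aldoc rose by 0.81 ± 0.11 (edgeR adjusted p = 4.4e-06), Pfkl rose by 0.66 ± 0.040 (edgeR adjusted p = 6.8e-14) and Ldha rose by 0.61 ± 0.036 (edgeR adjusted p = 6.2e-14). Pgam1 rose by 0.57 ± 0.051 (edgeR adjusted p = 2.4e-10), Aldoa rose by 0.53 ± 0.039 (edgeR adjusted p = 7.4e-11) and Tpi1 rose by 0.52 ± 0.037 (edgeR adjusted p = 2.6e-12). Aldoc, Aldoa and Pgk1 (0.24 ± 0.058 (edgeR adjusted p = 0.00067)) were thus lower in knockdown cells with DMSO and higher with RasV12. Pfkm fell by 0.16 ± 0.062 (edgeR adjusted p = 0.025), which was lost without the first NS library with RasV12 (adjusted p of 0.19) or either knockdown library with RasV12 (0.058 and 0.11), and by DESeq2 (0.18). Eno1 did not pass, at 0.09 ± 0.042 (edgeR adjusted p = 0.052), and reached 0.029 when its copy Eno1b was added to it, 0.049 without the first knockdown library with DMSO and 0.026 without the second NS library with RasV12.

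Of the transporters and regulators 5 were higher and 1 lower with RasV12. Slc2a1 rose by 1.28 ± 0.061 (edgeR adjusted p = 3.0e-08), the largest rise of this role, and Pfkfb2 rose by 0.79 ± 0.059 (edgeR adjusted p = 5.1e-12). Pdk3 rose by 0.45 ± 0.063 (edgeR adjusted p = 5.2e-07), Slc16a1 rose by 0.33 ± 0.045 (edgeR adjusted p = 1.1e-06) and Pdk1 rose by 0.22 ± 0.046 (edgeR adjusted p = 0.00021). The fall of Slc2a3, -1.22 ± 0.49 (edgeR adjusted p = 0.025), rested on few counts and was lost without any of the 4 RasV12 libraries (adjusted p from 0.056 without the second NS library to 0.12 without the second knockdown library) and by DESeq2 (0.17). Pfkfb4 was at 0.31 ± 0.18 (edgeR adjusted p = 0.14) and did not pass, but was at 0.61 with an adjusted p of 0.023 without the second NS library with RasV12.

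Hypoxia targets were higher in 10 of 14 and lower in 2, with a median of 0.49. Egln3 rose by 2.08 ± 0.087 (edgeR adjusted p = 4.1e-18), Bnip3 rose by 1.11 ± 0.11 (edgeR adjusted p = 1.7e-09) and Ndrg1 rose by 0.96 ± 0.056 (edgeR adjusted p = 2.3e-14). Bnip3l rose by 0.80 ± 0.062 (edgeR adjusted p = 1.1e-11), Kdm3a rose by 0.64 ± 0.046 (edgeR adjusted p = 2.2e-12), P4ha1 rose by 0.50 ± 0.054 (edgeR adjusted p = 6.1e-09) and P4ha2 rose by 0.49 ± 0.055 (edgeR adjusted p = 6.2e-08). The 2 that fell were Vegfa, with -0.95 ± 0.088 (edgeR adjusted p = 4.0e-10), and Car12, with -0.39 ± 0.050 (edgeR adjusted p = 1.5e-07), which had fallen with DMSO too. Ankrd37 rose by 0.71 ± 0.24 (edgeR adjusted p = 0.011), which was lost without the second NS library (adjusted p of 0.095) or the second knockdown library (0.079) with RasV12. Mif rose by 0.15 ± 0.050 (edgeR adjusted p = 0.014), lost without the first NS library (0.071) or the second knockdown library (0.15). Higd1a rose by 0.32 ± 0.13 (edgeR adjusted p = 0.034), lost without either NS library (0.090 and 0.10) or the first knockdown library (change 0.11, adjusted p of 0.58), and at 0.48 without the second. DESeq2 called none of these last 3, with an adjusted p of 0.14 for Ankrd37, 0.078 for Mif and 0.18 for Higd1a.

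Hif1a remained lower in knockdown cells with RasV12, with -0.21 ± 0.042 (edgeR adjusted p = 0.00028), while 10 of the 14 hypoxia targets were higher there. Arnt rose by 0.26 ± 0.052 (edgeR adjusted p = 0.00011), at 0.17 without the first knockdown library with RasV12, and Epas1 rose by 0.19 ± 0.059 (edgeR adjusted p = 0.0063), a call lost without the second (0.077). The 4 comparisons of pairs of groups share libraries with each other and with the difference of the responses, so their values are set side by side and their calls are not independent.

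Further genes of the same pathways were counted from 6 lists, also chosen with earlier results of these data known. The counts stand beside the shares over all genes, 20.8% higher and 21.3% lower with RasV12 in NS cells and 19.5% and 16.6% in knockdown cells. Other known hypoxia targets, 18 of 25 tested, had 7 higher and 2 lower with RasV12 in NS cells and 13 higher and none lower in knockdown cells (Gbe1 was lower at an unadjusted p of 0.026), with medians of 0.26 and 0.49. Ddit4, an inhibitor of mTOR, was at 37.3 and 34.5 CPM with DMSO and 48.4 and 53.5 CPM with RasV12 in NS cells, and at 60.9 and 54.5 CPM with DMSO and 159.8 and 165 CPM with RasV12 in knockdown cells. It rose by 0.50 ± 0.069 (edgeR adjusted p = 1.2e-06) in NS cells and by 1.49 ± 0.056 (edgeR adjusted p = 2.9e-17) in knockdown cells, with a difference between them of 0.99 ± 0.089 (edgeR adjusted p = 2.2e-09). Ak4, a mitochondrial adenylate kinase, was at 22.2 and 22.6 CPM with DMSO and 30.1 and 34.4 CPM with RasV12 in NS cells, and at 2.98 and 2.32 CPM with DMSO and 14.6 and 16.1 CPM with RasV12 in knockdown cells. It fell by 3.08 ± 0.18 (edgeR adjusted p = 3.1e-16) with knockdown and rose by 2.53 ± 0.19 (edgeR adjusted p = 1.0e-12) with RasV12 in knockdown cells, a difference of 2.0 ± 0.21 (edgeR adjusted p = 3.8e-09). Bhlhe40, a repressor induced by hypoxia, rose by 1.02 ± 0.066 (edgeR adjusted p = 1.2e-12) in NS cells and by 1.34 ± 0.068 (edgeR adjusted p = 2.3e-14) in knockdown cells. Tfrc, the transferrin receptor, had a difference of -0.91 ± 0.046 (edgeR adjusted p = 2.2e-14); it rose by 0.91 ± 0.033 with RasV12 in NS cells and was higher by 1.15 ± 0.033 in knockdown cells with DMSO.

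Genes that regulate HIF, 10 of 13 tested, had 1 higher and 2 lower with RasV12 in NS cells and 1 higher and 1 lower in knockdown cells, 30% and 20% called against 42.1% and 36.1% of all genes, a difference that was not tested. Cited2, a competitor of HIF for its coactivator, was at 109 and 109 CPM with DMSO and 50.3 and 52.5 CPM with RasV12 in NS cells, and at 128 and 128 CPM with DMSO and 113 and 115 CPM with RasV12 in knockdown cells. It fell by 1.08 ± 0.050 (edgeR adjusted p = 3.6e-16) in NS cells and by 0.16 ± 0.043 (edgeR adjusted p = 0.0037) in knockdown cells, a difference of 0.92 ± 0.066 (edgeR adjusted p = 1.9e-11). Vhl, which marks HIF alpha subunits for destruction, was at 37.8 and 37.2 CPM with DMSO and 36.1 and 39.8 CPM with RasV12 in NS cells, and at 19.0 and 17.0 CPM with DMSO and 17.7 and 18.5 CPM with RasV12 in knockdown cells. It fell by 1.06 ± 0.084 (edgeR adjusted p = 1.1e-11) with knockdown under DMSO and fell by 1.07 ± 0.085 (edgeR adjusted p = 1.1e-11) under RasV12.

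Other isoforms and branches of glycolysis, 12 of 21 tested, had 2 higher and 3 lower with RasV12 in NS cells and 5 higher and 1 lower in knockdown cells. The share called in NS cells, 41.7%, was that of all genes, 42.1%, and in knockdown cells it was 50% against 36.1%. Fbp2, a fructose bisphosphatase that runs the phosphofructokinase step in reverse, was at 344 and 343 CPM with DMSO and 237 and 259.7 CPM with RasV12 in NS cells, and at 64.9 and 66.7 CPM with DMSO and 99.9 and 100.2 CPM with RasV12 in knockdown cells. It fell by 2.38 ± 0.046 (edgeR adjusted p = 8.3e-25) with knockdown under DMSO, and the difference of its Ras responses was 1.07 ± 0.064 (edgeR adjusted p = 5.5e-13). Pgm2, which links glucose phosphates, rose by 0.81 ± 0.052 (edgeR adjusted p = 1.4e-12) in knockdown cells with RasV12. Other sugar and monocarboxylate transporters, 7 of 13 tested, had 2 higher and 4 lower in NS cells and 3 higher and 1 lower in knockdown cells. Slc2a5, the fructose transporter, fell by 2.03 ± 0.14 (edgeR adjusted p = 3.7e-13) in NS cells, with a difference of 1.75 ± 0.18 (edgeR adjusted p = 7.7e-09), the same direction as Slc2a1. Slc16a7, a pyruvate carrier, fell by 3.25 ± 0.19 (edgeR adjusted p = 2.8e-16) with knockdown under DMSO.

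The pentose phosphate pathway, which branches off after hexokinase, had 1 of 7 genes higher and 4 lower with RasV12 in NS cells, where 20.8% of all genes were higher and 21.3% lower, and 3 higher and 2 lower in knockdown cells, where 19.5% and 16.6% were. With so few genes no direction is read from these counts. Pgd was at 193 and 193 CPM with DMSO and 120.2 and 130.0 CPM with RasV12 in NS cells, and at 186 and 188 CPM with DMSO and 207 and 202 CPM with RasV12 in knockdown cells. It fell by 0.63 ± 0.042 (edgeR adjusted p = 1.4e-12) in NS cells and rose by 0.13 ± 0.040 (edgeR adjusted p = 0.012) in knockdown cells, a difference of 0.76 ± 0.058 (edgeR adjusted p = 7.3e-11). The 14 genes of pyruvate entry into mitochondria had 4 higher and 3 lower in NS cells and 2 higher and 2 lower in knockdown cells. Pdk2, a relative of Pdk1, was at 10.5 and 11.1 CPM with DMSO and 5.25 and 5.16 CPM with RasV12 in NS cells, and at 3.55 and 5.97 CPM with DMSO and 6.94 and 6.21 CPM with RasV12 in knockdown cells. It fell by 1.05 ± 0.17 (edgeR adjusted p = 9.3e-06) in NS cells, with a difference of 1.51 ± 0.25 (edgeR adjusted p = 2.4e-05).

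With knockdown of Tgfbr1 most further lists had calls in both directions. With DMSO, 9 of the 18 tested hypoxia targets were higher and 6 lower, and with RasV12 11 and 4. The HIF regulators had 4 higher and 4 lower with DMSO and 2 and 4 with RasV12. The other isoforms and branches had 8 higher and 4 lower and then 6 and 3, the other transporters 2 higher and 5 lower and then 3 and 3, the pentose phosphate genes 2 and 2 and then 4 and none, and the genes of pyruvate entry 5 and 3 and then 4 and 3. Shares of called genes in these lists ranged from 50% to 100% with knockdown, beside the 61.9% and 60.2% of all genes.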

How the data were processed

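RNA from adherent cells was made into TruSeq libraries and sequenced, per the labels. Estimated counts for each gene came in 1 table from the authors, not normalized, with 24909 entries and 8 libraries. It was made with TopHat and HOMER on build mm9, and DESeq2 is also named, per the submitters' processing notes. For versions, strand setting and reads matching several genes, details were not given in the sources used here. All values were multiples of 0.5 and 70.9% were whole, so they were rounded for the tests, although whole counts had been assumed when the tests were designed. Of a repeated symbol the entry with more counts was kept, which left 24907.

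Tests were run in edgeR 4.0.16 under R 4.3.3. The default filterByExpr kept 12538 genes with 99.96% of counts, TMM factors scaled the libraries, and a robust quasi-likelihood fit with 1 mean per group took all 8 libraries, which left 4 residual degrees of freedom. The 5 contrasts named in the results were tested two-sided with Benjamini-Hochberg adjustment over all genes at 0.05. CPM use the TMM factors, and the biological coefficient of variation was 3.37%. Library totals limit precision for low genes, and standard errors include the spread between libraries. The fit was also run on simulated data in which few genes were changed. Far more genes were called here, so the simulation does not show how the fit behaves with changes that wide.

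Values by library are given for genes that passed with an absolute log2 change of at least 0.5 in a comparison of 2 groups and averaged at least 5 CPM, and for Hif1a, Epas1, Arnt, Gapdh, Ldha, Slc2a1 and Vegfa. From each further list at most the 3 genes with the smallest p in a comparison are named, apart from Gbe1, chosen after its value was seen. The 45 genes and all lists were chosen with earlier results of these data known. Tceb1, Tceb2 and Ak3l1 of the further lists were not found by symbol. Sequence shared between transcripts was counted in GENCODE M21, and promoters came from RefSeq (GRCm38.p6), so no coordinate of build mm9 was used; Ero1l was matched as Ero1a. Alternatives were DESeq2 1.42.0, RLE size factors, no filter, a mean of at least 5 CPM, only the libraries compared, a replicate block, unrounded values, no ribosomal RNA, scaling without the 10 most abundant genes, each library left out, a longer promoter motif and a shorter window. Summing Eno1 and Aldoa with their copies was added after seeing the data.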

Additional observations from a re-analysis of the deposited data

Results flagged for a closer look

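The Ras responses of knockdown and NS cells differed, by a direct test of the difference (edgeR, adjusted p of at most 0.05 over all genes tested), in 29 of the 41 tested genes; the values are log2 changes in knockdown cells minus those in NS cells. Among glycolytic enzymes the difference was 1.60 for Aldoc, 1.01 for Aldoa, 0.59 for Pgk1, 0.50 for Tpi1, 0.48 for Pgam1, 0.47 for Pfkl, 0.40 for Pfkp, 0.39 for Ldha, 0.36 for Gpi1, 0.36 for Pfkm, 0.26 for Hk1 and 0.15 for Pkm. Among transporters and regulators the difference was 1.03 for Slc2a1, 0.37 for Pdk1, 0.32 for Pfkfb2 and -0.46 for Slc16a1. Among hypoxia targets outside glycolysis the difference was 1.56 for Ndrg1, 1.32 for Bnip3, 0.91 for Vegfa, 0.70 for Egln3, 0.69 for P4ha2, 0.60 for Ero1l, 0.59 for Mif, 0.33 for Egln1, 0.33 for Car12, 0.33 for Bnip3l and 0.25 for P4ha1. Among HIF subunits the difference was 0.69 for Hif1a and 0.30 for Epas1. The difference was positive in 28 of the 29 and negative for Slc16a1. The calls of Pkm, P4ha1 and Bnip3l were the ones that leaving out a single library ended, by the values given with them in the results. DESeq2 did not call those of P4ha1 and Bnip3l. With 2 libraries in each group no single library can be set apart from the rest of its group; how far the 2 differed is given in the results.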

How the results depend on the processing

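Of the 205 values of the 41 genes in 5 comparisons, 153 passed the test, and none of these changed direction under any alternative. DESeq2 lost 20 of the 153 calls, and leaving out a single library lost 24 in at least 1 case; the cause was not tested, other than that fewer libraries were fitted in the latter. Calls by DESeq2 over all genes were 3265 (5281 by edgeR) for RasV12 in NS cells, 2628 (4531) for RasV12 in knockdown cells and 2828 (4791) for the difference of the responses. In NS cells with RasV12, DESeq2 called 4 of the genes lower (7 by edgeR), with 1 transporter or regulator higher (2), 1 lower (3) and 1 hypoxia target lower (2). In knockdown cells with RasV12 it called 1 HIF subunit higher (2). It did not call Gapdh or Higd1a higher there either, nor Aldoa, Gapdh or Bnip3 in NS cells. For knockdown with DMSO it called 0 transporters and regulators lower (2), and for knockdown with RasV12 3 genes lower (5), 0 glycolytic enzymes lower (1) and 0 transporters and regulators lower (1). With a mean of at least 5 CPM, which tests fewer genes, 1 transporter or regulator was higher with RasV12 in NS cells and 0 were lower with knockdown under RasV12. Scaling without the 10 most abundant genes left 1 transporter or regulator lower with knockdown under DMSO. Only among the libraries compared, Aldoa in NS cells had an adjusted p of 0.063. The longer motif was found in 75.61% of the listed genes with a promoter, against 54.79% of tested genes, and the core within 150 bases of the start in 82.93%, against 49.37%.

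Leaving out each library in turn gave the ranges below, which are not all that moved. The counts of genes called higher over all roles also changed, in both Ras responses, both knockdown comparisons and the difference. For RasV12 in NS cells the genes lower ranged from 4 to 7, transporters and regulators higher from 0 to 2 and lower from 1 to 3, and hypoxia targets lower from 1 to 2. For RasV12 in knockdown cells HIF subunits higher ranged from 1 to 2. For knockdown with DMSO transporters and regulators lower ranged from 0 to 2 and HIF subunits lower from 1 to 2. For knockdown with RasV12 genes lower ranged from 3 to 5, glycolytic enzymes lower from 0 to 1, transporters and regulators lower from 0 to 1 and HIF subunits higher from 1 to 2. Where this left a group with 1 library, that library was assumed to vary like the other groups.

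Deviations from the group means correlated between -0.023 and 0.033 across genes, so no effect shared by libraries of the same replicate number was seen. Whether such libraries shared a culture, day or batch cannot be told from this, and the labels do not say. With a replicate block the counts of genes called were 5319, 4559, 7777, 7554 and 4814 in the order RasV12 in NS cells, RasV12 in knockdown cells, knockdown with DMSO, knockdown with RasV12 and the difference. The block ended none of the 153 calls and added that of Bnip3l in NS cells. Scaling alternatives moved the median of all genes by less than 0.03. Limits at this depth are the genes with the fewest counts among those tested, Slc2a3, Slc16a3 and Ankrd37, where errors are wide, and Eno2, Ldhb, Adm and Car9, which could not be tested.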
